A study of Mus musculus with 12 samples.

Results

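A set of 10 early response genes that lie outside the AP-1 family were followed through the 3 cell types of the mouse dentate gyrus series, namely Egr1, Egr2, Egr3, Nr4a1, Nr4a2, Arc, Ier2, Btg2, Sgk1 and Dusp1. They are 10 of the 50600 genes in the deposited count table, were picked by name, and were picked with their levels in these 12 libraries known, so their levels and fold changes below are descriptions and carry no p-value. The libraries were limiting-cell RNA-seq (lcRNA-seq) libraries of 50 sorted cells each, with 4 libraries for each of the sorted cell types (astrocytes, progenitors, stem cells). All cells came from the dentate gyrus of Nestin-GFP mice aged 6 to 9 weeks, which carry a GFP transgene driven by the Nestin promoter, and all mice were anaesthetised with ketamine and xylazine and perfused with PBS before the tissue was dissociated. Cells negative for CD31, CD45, O1 and O4 were sorted as stem cells when positive for both GLAST and GFP, as progenitors when positive for GFP alone, and as astrocytes when positive for GLAST alone. The comparisons asked which genes differ between the 3 sorted types. Stem cell libraries are numbered 1 to 4 as in the labels, while the letters a to d of the astrocyte and progenitor libraries are only names. The study describes the 4 libraries of each type as biological replicates and says that a single mouse brain was enough for a replicate, while the labels do not tie libraries to mice, so stem cells, progenitors and astrocytes cannot be matched by animal here.

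Early response genes are transcribed within minutes of a stimulus, without new protein synthesis, from promoters already loaded with serum response factor, CREB and their partners. In the hippocampus they are best known as the readout of neuronal firing, but growth factors, stress and the handling of tissue induce many of them in other cells too. The EGR proteins are zinc finger transcription factors, the NR4A proteins are orphan nuclear receptors, Arc shapes synapses, Btg2 restrains cell division, Sgk1 is a kinase induced by glucocorticoids and growth factors, and Dusp1 is a phosphatase that switches MAP kinases off.

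For 9 of the 10 genes the data gave the highest mean level in progenitors, and for 7 of them (Egr1, Egr2, Nr4a1, Ier2, Btg2, Sgk1 and Dusp1) each progenitor library lay above all 8 other libraries. Over all tested genes, the progenitor libraries lay above all astrocyte libraries for 15.2% of 14806 and above all stem cell libraries for 11.8% of 15427. The shares of all genes above both, or with the highest mean in progenitors, were not counted. Nr4a2 was the exception, with its highest mean in stem cells, and without stem cell library 2 all 10 genes were highest in progenitors, whereas without progenitor library a 8 were. The 10 genes together made up 0.122% to 0.314% of all counts in the progenitor libraries, 0.00659% to 0.0159% in stem cells and 0.00017% to 0.0101% in astrocytes. In summed read counts scaled to a common library size (CPM, with TMM-adjusted library totals), that was 1018 to 2619 in progenitors, 70.8 to 161 in stem cells and 1.98 to 115 in astrocytes. In pools of 50 cells, fewer cells that express a gene and less RNA of it per cell cannot be told apart.

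**Figure D1:**
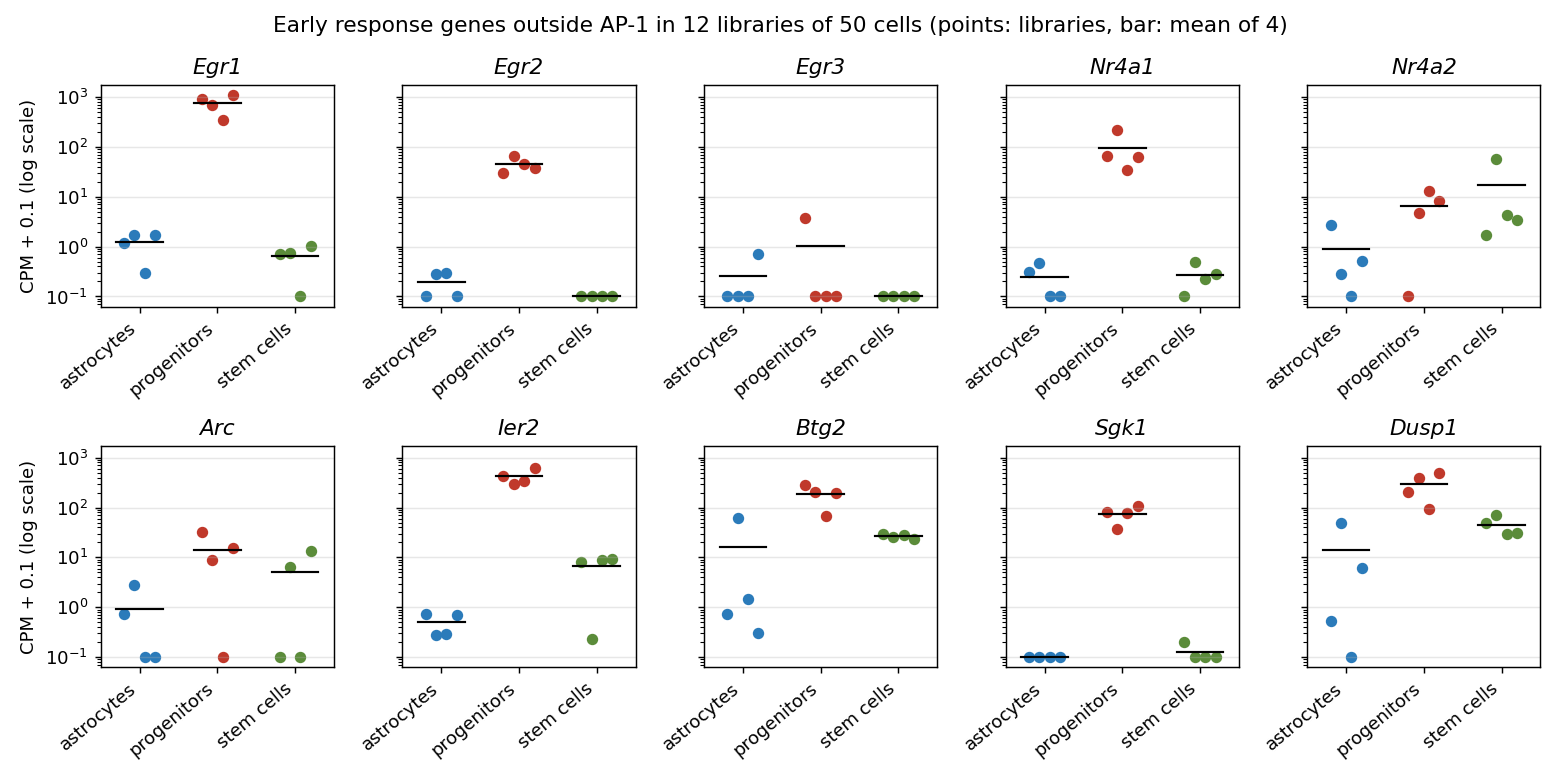
CPM plus 0.1 on a log axis for each of the 10 genes, with 1 point per library, 4 libraries per cell type and a bar at the mean. Progenitor points of Egr1, Egr2, Nr4a1, Ier2, Btg2, Sgk1 and Dusp1 stand above all points of the other cell types, whereas those of Egr3, Nr4a2 and Arc do not.

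The libraries held 5357232 to 6253680 counts in astrocytes, 9041498 to 12535028 in progenitors and 5031166 to 10435711 in stem cells, so 3 counts over a group, used here as the floor, correspond to 0.149, 0.0612 and 0.0974 CPM. Genes with at least 10 counts numbered 9430 to 11655 in astrocyte libraries, 16389 to 17015 in progenitors and 13368 to 14175 in stem cells. The paper calls the cDNA quality of the astrocytes suboptimal. Bounds from the floor cover counting only, and the part of transcript dropout in counts of 0 was not tested. The paper proposes to bound such fold changes from a coverage-based expression cutoff, which gave a smaller difference for Eomes. That cutoff was not applied here. The labels were compared with marker lists. The 10 markers of neural progenitors and neuroblasts summed to 697 to 1632 CPM in progenitors, at most 225 in astrocytes and at most 90.8 in stem cells, and the 9 astrocyte markers summed to 17831 to 24622 CPM in astrocytes, 27449 to 35983 in stem cells and 8551 to 11551 in progenitors. The 8 stem cell markers, with Nes among them, summed to 1349 to 2064 CPM in stem cells, 711 to 1042 in progenitors and 968 to 1333 in astrocytes. Nes, whose promoter drives the GFP used for sorting, went against that order. It was at 0 in every astrocyte library, at 0 to 0.521 CPM in stem cells and at 0.0835 to 19.96 CPM in progenitors. The 6 markers of oligodendrocyte progenitors summed to 1677 to 2641 CPM in progenitors against at most 311 elsewhere, with Pdgfra at 396 to 866 CPM in each progenitor library. The 6 mural markers summed to 2445, 299.7, 2671 and 1320 CPM in progenitor libraries a to d and to at most 198 elsewhere. In progenitor library b, Cspg4 and Pdgfrb were at 260.3 and 36.8 CPM and Rgs5, Kcnj8, Acta2 and Vtn at 0.251, 0.251, 0.919 and 1.25 CPM. The 10 neuron markers summed to 693 to 6175 CPM in astrocytes, 314 to 453 in progenitors and 299.5 to 496 in stem cells. Camk2a, at a mean of 1871 CPM, made up most of the sum in astrocytes. Snap25, Nefl, Slc17a7, Syt1, Calb1 and Gad2 also had higher means in astrocytes than in progenitors, with Snap25 at 302 against 83.5 CPM and Nefl at 245 against 5.02 CPM. Prox1, Rbfox3 and Gad1 went the other way, with higher means in progenitors (165, 29.7 and 24.7 CPM) than in astrocytes (43.3, 22.8 and 9.47 CPM). The 7 oligodendrocyte markers summed to 337 to 3205 CPM in astrocytes, 249.1 to 417 in progenitors and 477 to 821 in stem cells, and the 10 microglia markers to 63.4 to 289, 46.2 to 67.1 and 82.4 to 136 CPM. Ptprc, which encodes CD45, had no count in any library. The part of RNA from any of these other cell types in the levels below was not tested.

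Promoter sequence is shown for the genes below whose levels separated progenitors from both other types and for which RefSeq promoters were at hand, to set their known response elements beside their levels. Promoters of 6 of the 10 genes were matched (GRCm38.p6). Each line gives bases that precede an annotated start site and lie outside annotated exons, with searched motifs in capitals. Motifs were sought on both strands, and a match on the opposite strand appears as its complement.
Egr2 (chr10:67537669-67537868, forward strand): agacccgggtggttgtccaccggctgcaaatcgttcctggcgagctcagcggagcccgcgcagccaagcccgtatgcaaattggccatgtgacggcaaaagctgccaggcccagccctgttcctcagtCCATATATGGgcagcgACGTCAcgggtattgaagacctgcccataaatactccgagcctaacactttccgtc
Nr4a1 (chr15:101266646-101266845, forward strand): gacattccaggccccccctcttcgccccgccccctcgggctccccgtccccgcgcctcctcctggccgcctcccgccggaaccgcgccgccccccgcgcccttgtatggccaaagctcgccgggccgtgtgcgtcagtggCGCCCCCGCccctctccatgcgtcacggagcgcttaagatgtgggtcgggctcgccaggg
Btg2 (chr1:134079156-134079355, reverse strand): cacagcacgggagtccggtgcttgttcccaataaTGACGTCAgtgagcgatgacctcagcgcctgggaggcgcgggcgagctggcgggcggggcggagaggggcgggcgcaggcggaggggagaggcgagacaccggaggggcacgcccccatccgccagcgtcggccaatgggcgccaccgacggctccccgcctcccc
Dusp1 (chr17:26508520-26508672, reverse strand): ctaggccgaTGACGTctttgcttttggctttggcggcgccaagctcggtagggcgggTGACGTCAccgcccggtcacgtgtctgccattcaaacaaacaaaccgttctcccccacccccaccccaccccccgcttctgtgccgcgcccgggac
Sgk1 (chr10:21994466-21994665, forward strand): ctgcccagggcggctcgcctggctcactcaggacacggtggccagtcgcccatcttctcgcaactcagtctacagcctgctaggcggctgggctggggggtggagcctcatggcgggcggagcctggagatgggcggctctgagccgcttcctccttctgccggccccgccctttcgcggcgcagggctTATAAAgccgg

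The Egr2 stretch holds a CArG box, the site bound by serum response factor, and TGACGT on the opposite strand, the core of a CREB site. A CArG box was found in 1.63% of all 32851 promoters of the table and TGACGT in 7.51%. Btg2 and Dusp1 both hold the full CREB palindrome TGACGTCA, which contains TGACGT and was found in 1.79% of promoters, 166 and 143 bases before their start sites. Dusp1 holds TGACGT once more, 191 bases before the start. In Nr4a1 the EGR motif GCGGGGGCG, present in 2.91% of promoters, lies on the opposite strand 60 bases before the start. The Sgk1 start shown has TATAAA, present in 13.6% of promoters, 11 bases upstream, and a second of its 6 listed starts has it 28 bases upstream. The printed Egr2 start is 1 of 5 listed for that gene, and Nr4a2, whose stretch is not shown, held only TATAAA on the opposite strand. The NR4A motif AAAGGTCA and the AP-1 motif TGAGTCA, present in 1.51% and 5.2% of promoters, were not found in these windows of the 6 genes. A match is a stretch of letters and was not tested as a site in these cells.

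Among the EGR genes, Egr1 had the highest mean CPM of the 10 in progenitors. It stood at 921, 674, 345 and 1092 CPM in progenitor libraries a to d, at 1.06, 1.64, 0.198 and 1.63 CPM in astrocytes and at 0.616, 0.652, 0 and 0.929 CPM in stem cells. The progenitor libraries lay far above the others, while astrocytes and stem cells overlapped, with 23 and 16 counts in all. Its fitted log2 fold change was 9.37 ± 0.72 (SE) over astrocytes and 10.42 ± 0.67 over stem cells. The ratio of pooled counts was 677 (95% counting interval 451 to 1069) over astrocytes and 1489.8 (917 to 2607) over stem cells, and this interval, as for all pooled ratios here, covers counting error only because preamplified reads are not independent molecules.

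Egr2, known outside this context for its role in myelinating Schwann cells and hindbrain patterning, followed the same order at a lower level. Its values were 30.0, 64.9, 45.9 and 36.7 CPM in progenitors, 0, 0.183, 0.198 and 0 CPM in astrocytes, which is 2 counts in all, and 0 in every stem cell library. By counting alone, with 3 counts over the group as the floor, progenitors were thus at least 448-fold higher than stem cells. The ratio to the 2 astrocyte counts was 439 with a counting interval of 121 to 3628. Egr3, a paralogue that takes part in muscle spindle development, was found in progenitor library a alone among progenitors, at 3.63 CPM from 53 counts, and in astrocyte library d with 3 counts. No other library held a count of it, and it did not reach the minimum of 10 counts in 4 of 8 libraries in any comparison. The 3 EGR genes therefore did not move as a block, with Egr1 and Egr2 in every progenitor library and Egr3 in 1 of 4.

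Of the NR4A receptors, Nr4a1 (Nur77) showed the progenitor pattern and Nr4a2 (Nurr1), which is required for dopamine neurons, did not. Nr4a1 measured 64.9, 215, 34.5 and 63.4 CPM in progenitors, 0.213, 0.365, 0 and 0 CPM in astrocytes and 0, 0.391, 0.125 and 0.186 CPM in stem cells. Progenitor library b was the highest by a wide margin, and the other groups held 3 and 5 counts in all. The ratio of pooled counts was 633 (217 to 3072) over astrocytes and 581 (248.99 to 1792) over stem cells, and the fitted log2 fold changes were 9.19 ± 1.32 and 9.01 ± 0.94.

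Nr4a2 was at 0, 4.51, 12.7 and 7.998 CPM in progenitors, at 2.56, 0.183, 0 and 0.408 CPM in astrocytes and at 1.64, 58.0, 4.25 and 3.34 CPM in stem cells. Stem cell library 2 alone set the stem cell mean of 16.8 ± 27.5 CPM (SD, n = 4), and the progenitor and stem cell libraries overlapped. The log2 fold change of progenitors over stem cells was −1.44 ± 1.49 and became 0.98 without stem cell library 2. That library also stood apart in the 8 endothelial markers, which summed to 133 CPM there and to at most 16.6 CPM in each other library, with Cldn5 at 36.4 CPM. The part of endothelial RNA in its Nr4a2 level was not tested.

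Ier2, a short single-exon gene whose product is a nuclear early response protein, had the largest separation from astrocytes among the fitted values that rest on counts in both groups. It reached 438, 290.2, 339.9 and 611 CPM in progenitors, 0.639, 0.183, 0.198 and 0.613 CPM in astrocytes and 8.003, 0.130, 8.88 and 9.10 CPM in stem cells. Stem cell libraries 1, 3 and 4 lay above all astrocyte libraries and stem cell library 2, with 1 count, lay below them. The log2 fold change was 9.98 ± 0.63 over astrocytes and 5.97 ± 0.80 over stem cells, and the pooled ratios were 1060.2 (538 to 2456) and 65.2 (56.7 to 75.4).

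Btg2, an antiproliferative gene induced by p53 and known to mark neural precursors about to make neurons, was present in all 3 cell types. It measured 279.6, 204, 66.6 and 195 CPM in progenitors and 30.0, 25.4, 28.02 and 23.0 CPM in stem cells, where it was the steadiest of the 10 genes at 26.6 ± 3.03 CPM (SD, n = 4). In astrocytes it was at 0.639, 61.2, 1.38 and 0.204 CPM, so astrocyte library b nearly reached the lowest progenitor library. The log2 fold change was 2.77 ± 0.39 over stem cells and 3.55 ± 1.5 over astrocytes.

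Dusp1 had a profile like that of Btg2. It stood at 201, 382, 94.4 and 490.5 CPM in progenitors, 0.426, 48.8, 0 and 5.92 CPM in astrocytes and 47.8, 70.5, 29.5 and 30.3 CPM in stem cells. Progenitor libraries did not overlap with either group, and astrocyte library b lay among the stem cell values, whereas for Btg2 it lay above all of them. The log2 fold change was 2.68 ± 0.50 over stem cells and 4.39 ± 1.51 over astrocytes. For both genes the astrocyte comparison turned on library b, since without it astrocytes stood at −7.94 relative to progenitors for Btg2 and at −7.10 for Dusp1 on the log2 scale, and both then passed the threshold. The counting did not use strand, and 0.332% of the exonic bases of Dusp1 are shared with Ergic1 on the opposite strand, whereas the other 9 genes share none with another gene.

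Sgk1 was nearly absent outside progenitors. It measured 80.6, 36.9, 78.2 and 106 CPM there, had no count in the 4 astrocyte libraries, and had 1 count in the 4 stem cell libraries together. Progenitors were at least 506-fold higher than astrocytes, taking 3 counts over the group as a floor that covers counting only. The ratio to the single stem cell count was 2325 with a counting interval of 417 to 91847. Arc, the synaptic member of the group, was the least regular. It stood at 31.96, 8.77, 0 and 15.7 CPM in progenitors, 0.639, 2.74, 0 and 0 CPM in astrocytes and 0, 6.39, 0 and 13.4 CPM in stem cells, so each cell type held libraries without a count and all 3 overlapped. Its log2 fold change was 4.04 ± 2.0 over astrocytes and 1.47 ± 1.85 over stem cells.

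**Figure D2:**
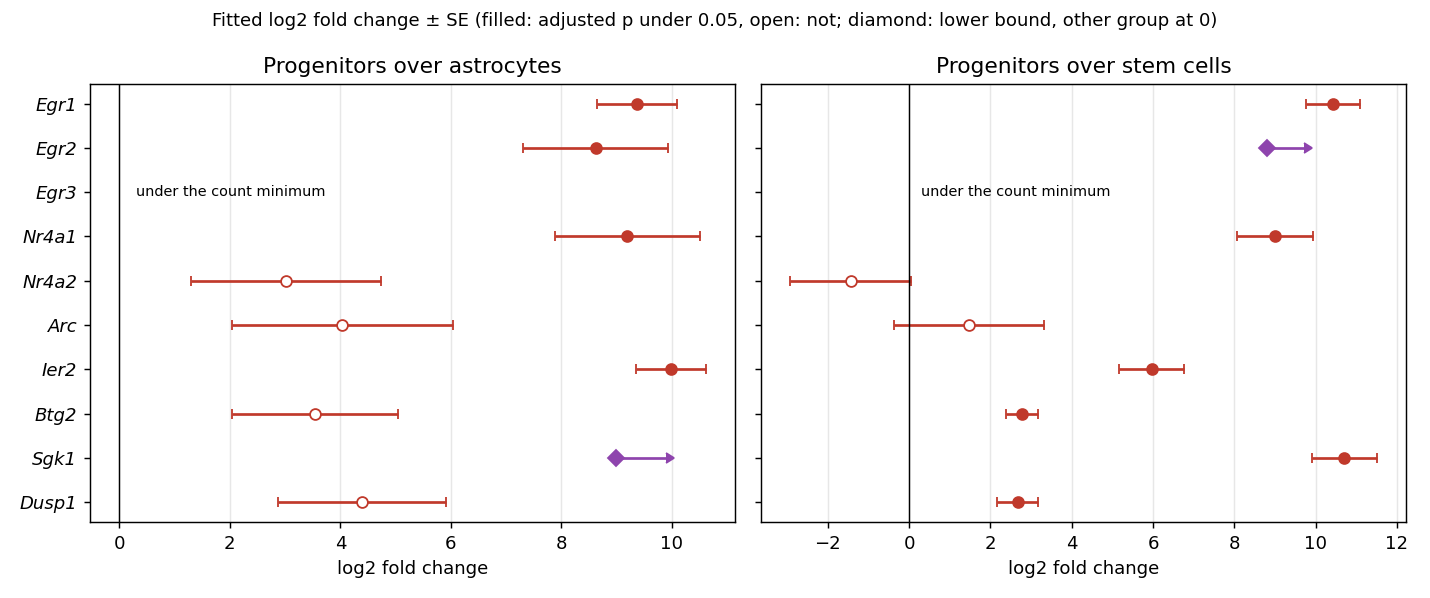
Log2 fold change of progenitors over astrocytes (left) and over stem cells (right) with its standard error, 4 libraries per group, and a diamond with an arrow for a lower bound where the other group had no count. Filled points passed an adjusted p of 0.05 in edgeR, both bounded genes did so too, and Btg2 and Dusp1 lie near 3 over stem cells with short errors against long errors over astrocytes.

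The calls were read against those over all genes. In astrocytes against progenitors, 9 of the 10 genes reached the count minimum and 5 of them (Egr1, Egr2, Nr4a1, Ier2 and Sgk1) were called higher in progenitors by edgeR's quasi-likelihood test (adjusted p under 0.05), where 6.18% of 14806 tested genes were called in that direction and 2.45% in the other. DESeq2 called 6, with Dusp1, beside 16.4% of genes called in either direction. The 7 genes whose progenitor libraries did not overlap with the astrocyte libraries stand beside 15.2% of tested genes with that property. In progenitors against stem cells, 9 genes were tested and 7 were called higher in progenitors (the same 5 with Btg2 and Dusp1), where 4.95% of 15427 tested genes were and 3.66% were called higher in stem cells. DESeq2 called 7 beside 15.5% in either direction, and 7 did not overlap beside 11.8%. Because the genes were picked with these levels known, and because those at 0 in the other type could pass the count minimum only by being high in progenitors, nothing is read from these counts. The 2 comparisons share the progenitor libraries. Without progenitor libraries a and c, those of highest mural markers, Egr1 and Ier2 were still called against astrocytes while Egr2, Nr4a1 and Sgk1 were not, and 7 genes were called against stem cells. The log2 values of astrocytes relative to progenitors were −8.78 for Egr2 and −9.705 for Nr4a1 in that fit of 2 progenitor libraries, in which 12 genes of all were called in place of 1278. In 1 fit of all 12 libraries, Btg2 and Dusp1 were not called against stem cells.

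None of the 10 genes separated the astrocyte from the stem cell libraries. Only Nr4a2, Btg2 and Dusp1 reached the count minimum, none was called by edgeR or DESeq2, and the background was 0.0468% of 12831 genes called higher in astrocytes by edgeR and 0% higher in stem cells (1226 at an unadjusted p under 0.05) and 4.95% by DESeq2. The log2 fold changes of astrocytes over stem cells were −4.41 ± 1.83 for Nr4a2, −0.74 ± 1.52 for Btg2 and −1.69 ± 1.54 for Dusp1, and the libraries of both types overlapped for each of the 10 genes. Egr1, Egr2, Egr3, Nr4a1 and Sgk1 had fewer than 10 counts in every library of both types, so they were too shallow here to be tested between the 2.

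Levels of different genes were compared per kilobase of exon, here in progenitors. Ier2 led with 276 ± 93.1 CPM per kb (SD, n = 4) and ranked between 45 and 154 in the 4 libraries among 50376 genes. It was followed by Egr1 at 169 ± 72.3, Dusp1 at 88.2 ± 53.7, Btg2 at 67.9 ± 32.2, Nr4a1 at 26.9 ± 23.2, Sgk1 at 15.4 ± 5.85, Egr2 at 13.1 ± 4.46, Arc at 4.61 ± 4.42, Nr4a2 at 1.56 ± 1.33 and Egr3 at 0.206 ± 0.412 CPM per kb. Each neighbouring pair of this order overlapped across libraries, so neighbours in it did not differ beyond their spread. Within each library, however, Ier2 was above Egr1, Egr1 above Dusp1 and Btg2 above Nr4a1 in 4 of 4 libraries, whereas Nr4a1 was above Sgk1 in 2 of 4. With the longest transcript as length in place of all exons the order was the same, and Sgk1 moved to 24.4 CPM per kb. In stem cells Dusp1 and Btg2 led with 13.4 ± 5.82 and 9.70 ± 1.10 CPM per kb, and Egr1 was at 0.122 ± 0.0874. The 10 genes are compact, with a median span of 6063 bases and a median of 2.5 exons in the longest transcript, against 18866.5 bases and 6 exons over the 15780 genes tested in any comparison.

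**Figure D3:**
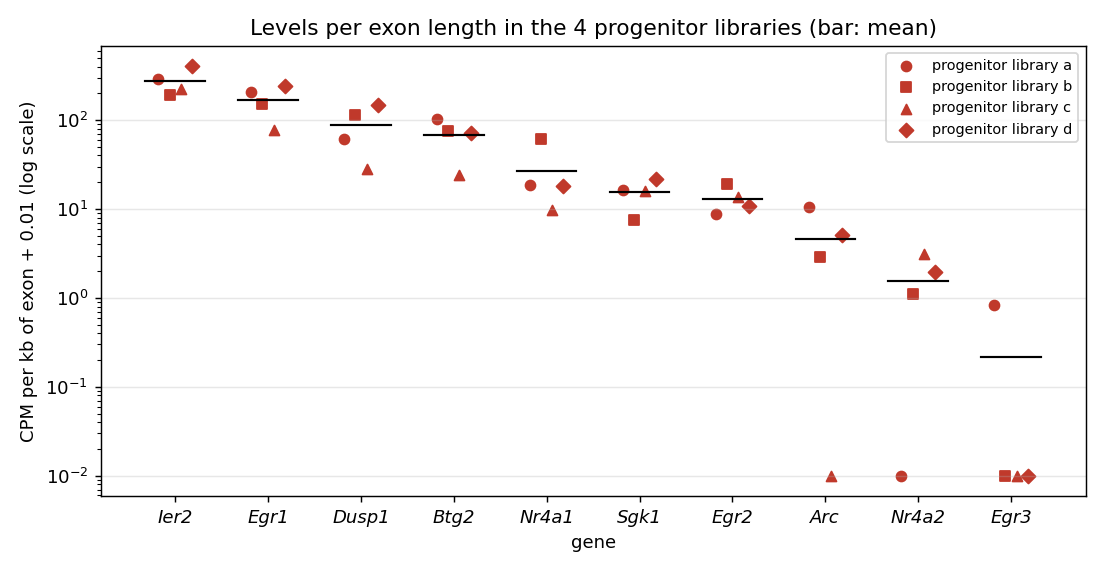
CPM per kilobase of exon plus 0.01 on a log axis for the 10 genes in the 4 progenitor libraries, with 1 symbol per library and a bar at the mean. Ier2 and Egr1 lead, library c (triangles) is lowest for Egr1, Dusp1, Btg2 and Nr4a1, and Egr3 was found in library a only.

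The 4 progenitor libraries differed among themselves in a gene-specific way. Library c was the lowest for 5 of the 10 genes, counting Egr1, Btg2, Dusp1, Nr4a1 and Arc, yet it was the highest for Nr4a2 and near the mean for Sgk1 and Egr2. Library d was the highest for 4 genes (Egr1, Ier2, Sgk1 and Dusp1), library a for Egr3, Arc and Btg2, and library b for Egr2 and Nr4a1. The ratio of the highest to the lowest progenitor library was 2.11 for Ier2, 2.17 for Egr2, 2.88 for Sgk1, 3.16 for Egr1, 4.20 for Btg2, 5.19 for Dusp1 and 6.23 for Nr4a1. The AP-1 genes were likewise lowest in library c and highest in library d, at 2389 and 4375 summed CPM.

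**Figure D4:**
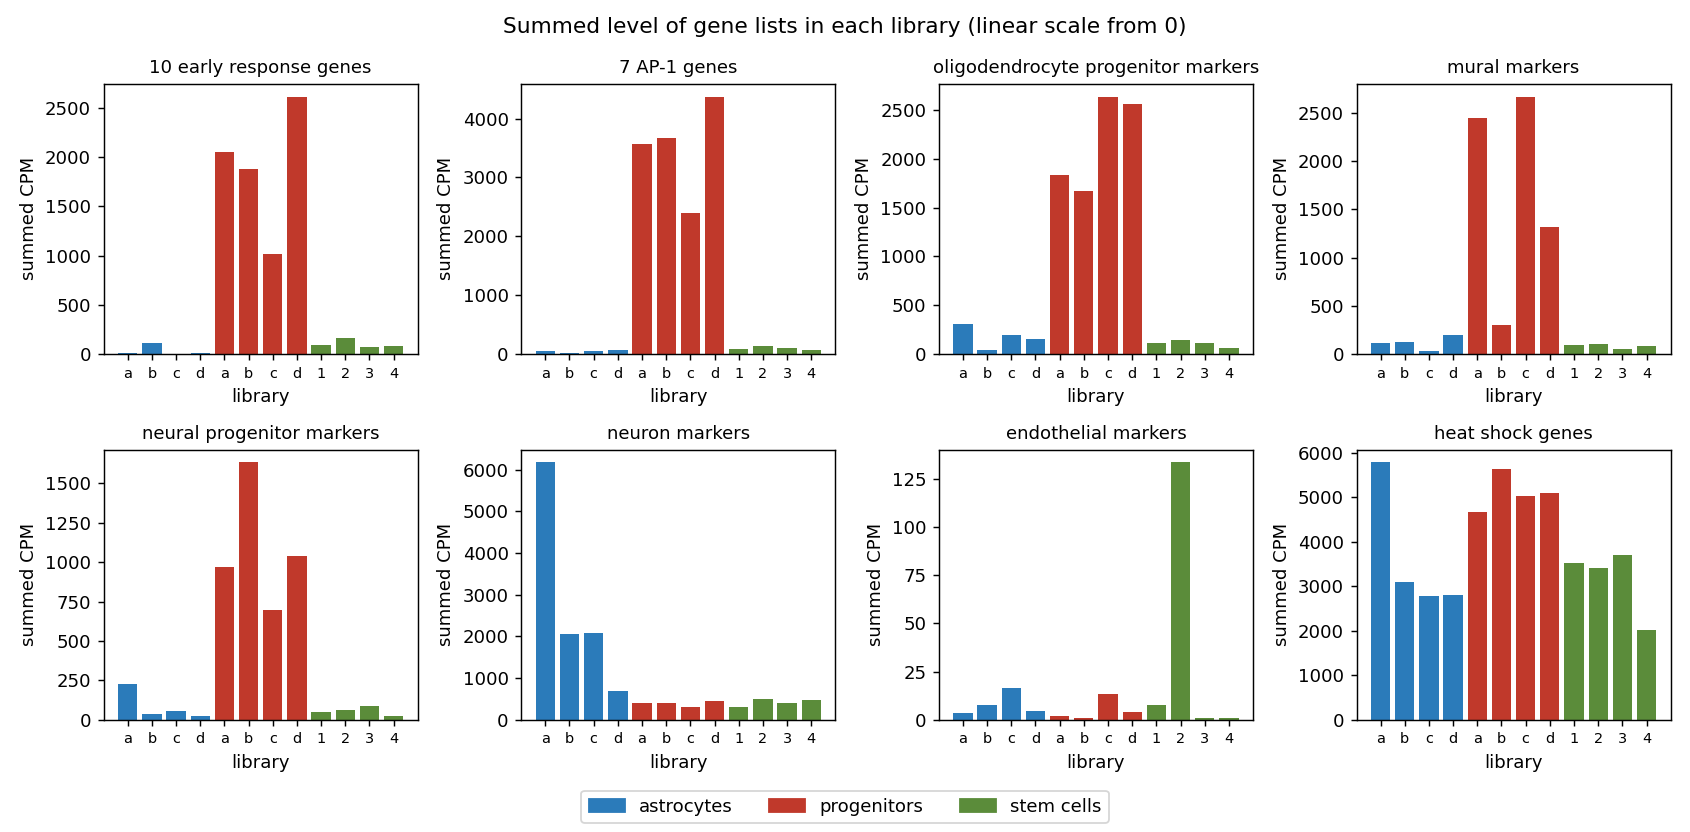
Summed CPM of 8 gene lists in each library on linear axes that start at 0, with astrocytes a to d, progenitors a to d and stem cells 1 to 4 as bars. The 10 early response genes and the AP-1 genes are high in all 4 progenitor libraries, mural markers are low in progenitor library b, neuron markers are highest in astrocyte library a and endothelial markers stand out in stem cell library 2.

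The other genes of the response were counted from lists set by textbook role, and each count below stands beside 6.18% of all tested genes called higher in progenitors than in astrocytes and 4.95% called higher than in stem cells. A count of 1 in a list of 11 to 15 tested genes is near those shares and says nothing particular of the list. Of the 7 AP-1 genes, which dimerise on TGAGTCA sites, 6 were tested against astrocytes and Fos, Jun and Junb rose in progenitors, with a list median log2 fold change of astrocytes over progenitors of −4.69 beside 0.03 over all genes. Against stem cells 5 were tested and 4 rose in progenitors (Fos, Fosb, Jun and Junb, list median 4.39 beside 0.04). Fos measured 2434, 2293, 1436 and 2858 CPM in progenitors, 1.78 to 68.8 CPM in astrocytes and 2.60 to 58.9 CPM in stem cells. Its log2 fold change over astrocytes was 6.85 ± 1.24 (edgeR, adjusted p = 0.0158) and over stem cells 6.48 ± 0.80 (edgeR, adjusted p = 0.00153). Jun was at 756 to 1031 CPM in progenitors, 1.46 to 31.2 CPM in astrocytes and 43.0 to 79.3 CPM in stem cells, and Junb at 149 to 404, 0.426 to 4.54 and 0.876 to 27.0 CPM.

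The other early response genes numbered 22. Of 12 tested against astrocytes 2 rose in progenitors, Klf10 and Myc (6.18% over all genes), and the list median was −0.44 for astrocytes over progenitors beside 0.03 over all genes. Klf10, a TGF-beta induced zinc finger factor, was at 6.84 to 25.8 CPM in progenitors and Myc at 4.80 to 29.99 CPM, with no count of either in astrocytes, so they were at least 132-fold and 79.8-fold higher (edgeR, adjusted p = 0.0160 and 0.0190). Against stem cells 0 of 11 were called by edgeR (4 at an unadjusted p under 0.05) and 3 by DESeq2, with a list median of 0.46, and the 2 most abundant, Gadd45g and Bhlhe40, had log2 fold changes of 0.30 ± 0.27 and −1.53 ± 0.44 (edgeR, adjusted p = 0.596 and 0.0634). The delayed activity genes encode effectors such as Bdnf and Homer1. Of 12 tested, 1 rose in progenitors over astrocytes, near the share over all genes. It was Cdkn1a, the p21 cell cycle inhibitor, at 1.38 to 14.8 CPM against 1 count in astrocytes and 0 to 9.26 in stem cells. Over stem cells 1 of 15 rose, Lingo1, at 14.1 to 33.5 against 0 to 2.38 CPM (edgeR, adjusted p = 0.0451). Lingo1 was highest in astrocyte libraries a and c, at 87.1 and 36.3 CPM, and was at 3.11 and 0.204 CPM in b and d. The list medians were −0.74 for astrocytes over progenitors and 1.06 for progenitors over stem cells.

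Genes that limit the response are the MAP kinase phosphatases, Sprouty proteins and mRNA decay factors. Of 21 tested against astrocytes 4 rose in progenitors, namely Dusp4, Dusp6, Dusp14 and Spry4, and of 21 against stem cells 2 did, Dusp10 and Spry4, beside 6.18% and 4.95% over all genes. Spry4, an inhibitor of receptor tyrosine kinase signalling, was at 46.9 to 67.0 CPM in progenitors, 0.817 to 1.38 in astrocytes and 5.54 to 16.3 in stem cells (log2 fold changes 5.65 ± 0.86 and 2.26 ± 0.43, edgeR, adjusted p = 0.00804 and 0.00968). Dusp4 reached 8.78 to 70.00 CPM in progenitors against 1 count in astrocytes, and Dusp14 34.1 to 87.9 CPM against 2 counts. In stem cells Dusp4 was at 0 to 10.5 CPM and Dusp14 at 0 to 16.3 CPM. Dusp10 was at 1.34 to 7.14 CPM in progenitors against 1 count in stem cells. Its highest library was astrocyte library d, at 18.6 CPM, with no count in astrocyte libraries a to c. The list medians were −0.48 for astrocytes over progenitors and 0.68 for progenitors over stem cells.

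Upstream factors and partners mostly did not pass the test. The single called gene, near the share over all genes, was Rxrg, a retinoid receptor that can pair with Nr4a1 and Nr4a2, which rose in progenitors, at 6.93 to 18.1 CPM against 0 to 0.204 in astrocytes and 0 to 0.923 in stem cells (edgeR, adjusted p = 0.0160 and 0.0351, 1 of 15 tested in each comparison). A glucocorticoid list was counted because Sgk1 and Dusp1 answer to that hormone. Of 15 tested, Nr3c2 (the mineralocorticoid receptor) fell and Cdkn1a rose in progenitors against astrocytes, and Nr3c2, Mt1 and Mt2 fell in progenitors against stem cells, with log2 fold changes of −1.18 ± 0.28, −1.40 ± 0.28 and −1.43 ± 0.29 (edgeR, adjusted p = 0.0285, 0.0120 and 0.0133). Genes that fell stand beside 2.45% of all tested genes called lower in progenitors than in astrocytes and 3.66% called lower than in stem cells. The metallothionein Mt1 was at 541 to 1097 CPM in progenitors and 1625 to 3301 in stem cells.

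Of the p53 targets, of which Btg2 is another, 4 of 12 tested rose in progenitors over astrocytes and 1 of 12 over stem cells, beside 6.18% and 4.95% over all genes. Sesn2, a stress-induced regulator of mTOR, was at 5.35 to 32.8 CPM in progenitors with no count in astrocytes. In stem cells it was at 0 to 26.9 CPM, with its highest value in library 3. Phlda3 was at 13.1 to 50.3 CPM in progenitors, 0 to 1.43 in astrocytes and 0 to 10.5 in stem cells. Bbc3, the proapoptotic gene Puma, was at 3.09 to 3.78 CPM in progenitors, 0 to 0.365 in astrocytes and 0 to 0.186 in stem cells. The heat shock list gave 1 called gene of 11 over astrocytes (Dnajb1, 33.1 to 65.7 CPM against 1 count) and 5 of 12 over stem cells. The latter were Hspa1a, Dnajb1, Hsp90ab1, Hsp90aa1 and Dnaja1, with log2 fold changes of 6.95 ± 1.25, 2.23 ± 0.56, 1.15 ± 0.15, 1.13 ± 0.24 and 0.73 ± 0.19. Hspa1a was at 11.7 to 45.8 CPM in progenitors and at most 0.521 CPM in stem cells, and at 73.1 CPM in astrocyte library a. Handling of the tissue before lysis can induce both heat shock and early response genes, and its part in these levels was not tested. In astrocytes against stem cells no gene of these 8 lists was called by edgeR (0 to 3 per list at an unadjusted p under 0.05), with DESeq2 calling 1 delayed, 2 feedback, 1 glucocorticoid and 1 heat shock gene. Gadd45g and Bhlhe40 had log2 fold changes of −0.39 ± 0.59 and −0.72 ± 1.05 in astrocytes over stem cells (edgeR, adjusted p = 0.906 and 0.899).

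**Figure D5:**
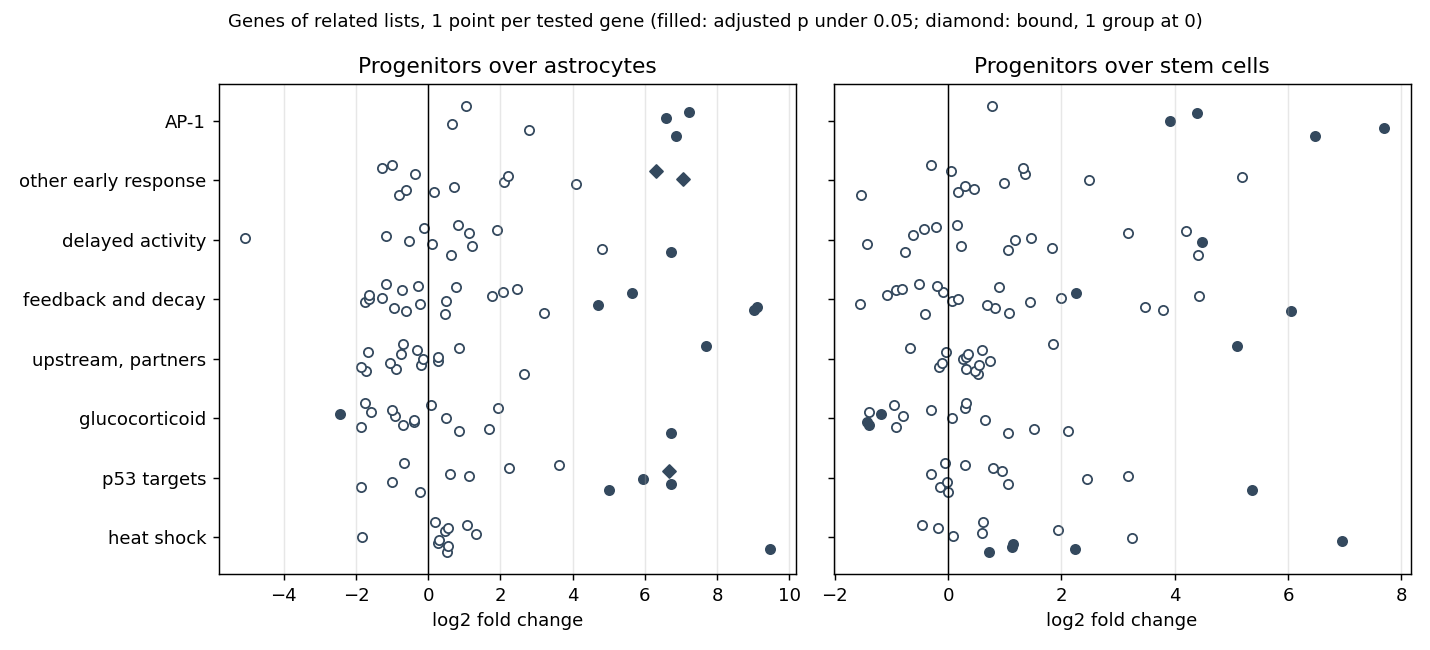
Log2 fold change of each tested gene of 8 related lists in progenitors over astrocytes (left) and over stem cells (right), with filled symbols for an adjusted p under 0.05 in edgeR and diamonds for bounds where 1 group had no count. The AP-1 list has medians of −4.69 (astrocytes over progenitors) and 4.39 (progenitors over stem cells). The other 7 lists have medians between −1.68 and 0.38 and between −0.30 and 1.06 in the same order. Fos reaches 6.85 over astrocytes and 6.48 over stem cells, and single genes of other lists go further. Examples are Dnajb1 at −9.45 for astrocytes over progenitors and Hspa1a at 6.95 for progenitors over stem cells.

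The genes whose profile over the 12 libraries was most like that of each member were sought among 16119 genes, by the mean absolute difference of centred log2(CPM + 1) values. Egr1 was closest to Qpct and Cd24a (0.65 and 0.72), Egr2 to Syt16 and Zfp57 (0.17 and 0.21), Nr4a1 to Igfbpl1 and Sstr2 (0.31 and 0.41), Ier2 to Lhfpl3 and Ccnd1 (0.58 and 0.81), and Sgk1 to March1 and Pxdc1 (0.15 and 0.25). Qpct measured 254 ± 86.6 CPM (SD, n = 4) in progenitors, 0.240 ± 0.227 in astrocytes and 0.0908 ± 0.123 in stem cells, and Igfbpl1 56.5 ± 28.6 CPM in progenitors and 0 in astrocytes. Btg2 was closest to Gdap1l1 and Tmpo (0.55 and 0.61), and Dusp1 to Gtf3a and to Btg2 itself (0.76 and 0.76), the only case in which the closest genes included another of the 10. Arc was closest to Lyplal1 and 2810405F17Rik (0.63 and 0.64) and Nr4a2 to Gm45169 and Lpcat4 (0.67 and 0.72). Egr3, near 0 in nearly all libraries, was closest to genes of even level (Ube2s and Pcdhga12), which says little about it. With a pseudocount of 0.1 CPM in place of 1 CPM, 7 of the 20 closest genes stayed the same.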

How the data were processed

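Counts of 12 libraries, 4 per sorted cell type, were read from 1 table of deposited read counts per gene. To make these counts, the authors trimmed adapters, discarded reads from rRNA, the mitochondrial genome or PhiX, and mapped the remainder with HISAT2 2.0.6 to GRCm38.p4 then counted them with featureCounts without strand, against GENCODE M14. Libraries were preamplified from 50 cells with no molecular identifiers, so intervals cover counting error only. The submitters' processing notes also name CASAVA 1.8.2.

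Each pair of cell types was fitted on its own 8 libraries with edgeR 4.0.16 in R 4.3.3 (TMM, quasi-likelihood test, a minimum of 10 counts in 4 or more of the libraries, Benjamini-Hochberg threshold 0.05). CPM used TMM-scaled library sizes over all 12 libraries. Pooled ratios carry 95% exact (Clopper-Pearson) intervals, and a group at 0 was set to 3 counts over the group. Exon lengths came from GENCODE M21 on the same build, in which 3 members carry a newer model version. Gene symbols were found for 50376 of 50600 identifiers. Alternatives were DESeq2 1.42.0, its size factors, other count filters, 1 fit of all 12 libraries, thinning, and leaving out libraries. The fits were run on simulated data, where recovery of large changes was required of edgeR only at a spread set low. That check does not show how well changes are found at the spread of these libraries. The members and lists were chosen with earlier results of these data known. Named genes were the 10 members, Fos, Jun and Junb, up to 3 called genes of largest change per list and comparison (or the 2 most abundant where none was called, given between astrocytes and stem cells for the other early response list alone), and the 2 genes most like each member. Genes named for marker checks, and further called genes of a list, fall outside that rule and were chosen after their values were seen. Gene lists whose results are given as counts hold 7 AP-1, 22 other early response, 18 delayed, 23 feedback, 16 upstream or partner, 17 glucocorticoid, 16 p53 and 12 heat shock genes. Cdkn1a stands in 3 of these lists.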

Additional observations from a re-analysis of the deposited data

Results flagged for a closer look

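In 19 groups of 4 libraries with at least 10 counts in some library, 7 held a library whose gap to the nearest of the others exceeded Dixon's 95% critical value. A group could enter through the same high library that was then flagged, and CPM values near 0 are skewed, so no chance rate is set beside this count. Astrocyte library b stood above the other astrocytes for both Btg2 (61.19 CPM against 0.204 to 1.38) and Dusp1 (48.77 CPM against 0 to 5.92). Stem cell library 2 stood above the other stem cells for Nr4a2 (57.99 CPM against 1.64 to 4.25) and below them for Ier2 (0.1303 CPM, 1 count, against 8.003 to 9.10). Progenitor library b was high for Nr4a1 (214.6 CPM against 34.5 to 64.9), and progenitor library a alone held Egr3 (3.635 CPM against 0). Astrocyte library a was high for Nr4a2 (2.556 CPM, 12 counts, against 0 to 0.408).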

How the results depend on the processing

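No paired analysis was possible because the columns of astrocytes and progenitors carry no replicate number. Among the 10 genes, 5 were called in astrocytes against progenitors under each alternative on all libraries or with 1 left out that could test them, apart from DESeq2 with 6 (Dusp1 added) and the fit without astrocyte library b with 7. In progenitors against stem cells 7 were called under each such alternative but for the following, with 2 of 2 tested when 10 counts were asked in every library and 5 in the fit of all 12 libraries (Btg2 and Dusp1 lost). Asking for 10 counts in every library left no member to test in the other comparisons. The fold change of 1 member turned, with Nr4a2 in progenitors over stem cells at 0.9833 without stem cell library 2 (range −2.03 to 0.98 with 1 library left out). With 1 library left out, the members called ranged from 5 to 7 (astrocytes against progenitors), 7 to 7 (progenitors against stem cells) and 0 to 0 (astrocytes against stem cells).

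Calls over all genes moved more. The first comparison (astrocytes with progenitors) had 1278 calls, the second (progenitors with stem cells) 1327 and the last (astrocytes with stem cells) 6, and DESeq2 gave 2431, 2394 and 635. No count filter gave 529 and 16 in the first and last, and 10 counts in every library gave 287 and 12. One fit of all 12 libraries gave 445 in progenitors against stem cells and 343 in astrocytes against stem cells. With 1 library left out, they ranged from 719 to 1871, 830 to 1383 and 0 to 8. The first was lowest without progenitor library c, the second without progenitor library d and the last without stem cell library 3 or 4. Without progenitor libraries a and c, those of highest mural markers (chosen after seeing the data, leaving 2 progenitor libraries), 12 and 244 genes were called in the comparisons with astrocytes and stem cells, and 2 (Egr1 and Ier2) and 7 of the members. Egr3 missed the count minimum in each comparison. The causes of these shifts were not tested.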

Other observations

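Paralogues and relatives of the 10 genes are given here as values chosen after they were seen. Egr4, the last EGR gene, was found in 1 progenitor library (65 counts, 4.46 CPM) and 1 stem cell library (20 counts, 2.61 CPM) and in no astrocyte library. Nr4a3, the last NR4A receptor, was at 3.01 to 5.90 CPM in progenitors, 0 to 24.9 CPM in astrocytes and 0 to 3.78 CPM in stem cells, so its highest library was one of astrocytes. Npas4, an activity-dependent factor of neurons, was at 0.172 to 3.26 CPM in progenitors with no count in astrocytes or stem cells. Atf3, a stress-induced relative of the CREB family, had 12 counts in all progenitors and 11 in all stem cells.

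Nab1 and Nab2, the corepressors that EGR proteins induce and bind, were at 0.647 to 6.58 and 0 to 3.43 CPM in progenitors, against 0 to 11.5 and 0 to 18.8 CPM in astrocytes and 1.03 to 20.6 and 0 to 2.04 CPM in stem cells. Srf, which encodes serum response factor, was at 2.77 to 11.01 CPM in progenitors, 0.204 to 36.6 in astrocytes and 0.261 to 3.18 in stem cells.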
